A study of Mus musculus with 43 samples.

Results

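GDP-fucose is the activated sugar from which cells build fucosylated glycans, and 11 genes of its supply and use were followed in an in vivo CRISPR knockout screen of CD8+ T cells. The table of the screen was searched for 17 symbols, namely the genes that make, salvage or transport GDP-fucose, the *Fut* fucosyltransferases and the *Pofut* protein O-fucosyltransferases. Of these, 11 had guides, 5 single guide RNAs (sgRNAs) each, which makes 55 of 10640 sgRNAs and 11 of 2078 genes, beside 250 nontargeting sgRNAs. The symbols *Fut10*, *Fut11*, *Pofut1* and *Pofut2* had none, and *Tsta3* and *Fuk* stand in the table under these older names of *Gfus* and *Fcsk*. The family was chosen from its measured changes against the day of transfer and from its differences between anti-PD-1 and IgG in each organ, so these values are given as a description and carry no p-value.

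Genomic DNA was sequenced at the integrated sgRNA in CD90.1+ OT-I T cells, bred from Rag2/OT-I and Rosa26-Cas9 knock-in mice. They carry a T cell receptor for ovalbumin and constitutive Cas9, and CD90.1 marks transduction with the lentiviral metabolic library. The cells were transferred (ACT) 5 days after the ovalbumin-expressing pancreatic cancer line KPC_OVA had been injected into the pancreas of Cas9 knock-in C57BL/6J mice aged 6 to 12 weeks, and anti-PD-1 or rat IgG was given at 10 mg/kg every 2 days from that day on. At 7 days after ACT the cells were sorted from primary tumour, lung, liver, peritoneal metastases, spleen, draining and nondraining lymph nodes, and cells of the day of transfer, T0, were the reference. Of 43 samples 41 carry values, with 3 libraries of T0 and of each group except peritoneal metastases IgG and liver IgG, which have 2 each, and liver anti-PD-1, which has 1. All groups share the Cas9 knock-in, the OT-I receptor and the library, and the sources used here do not give how many mice stand behind a library, so the spread between libraries may be partly technical. By the paper's account the organs were collected from the same killed mice. Libraries of different organs may thus not be independent, which the main fit does not model. Means, SEs and counts over organs or libraries carry this limit.

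GDP-fucose arises de novo from GDP-mannose through the dehydratase encoded by *Gmds* and the epimerase-reductase encoded by *Tsta3*, or by salvage of free fucose through the kinase *Fuk* and the pyrophosphorylase *Fpgt*. The transporter *Slc35c1* carries it into the Golgi, where *Fut8* adds the core fucose of N-glycans, *Fut1* and *Fut2* add alpha-1,2-linked fucose, and *Fut4*, *Fut7* and *Fut9* add alpha-1,3-linked fucose. In T cells *Fut7* and *Fut4* are known for the sialyl Lewis x glycans that bind selectins, and core fucose is carried by many T cell surface receptors.

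The deposited values are a signal, that is, read counts that the authors scaled to the nontargeting sgRNAs and corrected between organs. It no longer consists of whole counts, which leaves the read depth unknown. A gene value here is the mean over its 5 sgRNAs of log2(signal + 1) minus the median of the nontargeting sgRNAs in the same library, and a change is a difference of such values. Since the fold is taken on log2(signal + 1), it understates the change of low sgRNAs. An sgRNA at the lowest value that the libraries of one replicate number share is called undetected. The undetected share was 0% to 0.0188% in T0 and 2.78% to 42.6% in the 26 libraries of the 5 organs other than lymph nodes, where it was over 20% in lung IgG replicates 1 and 2, lung anti-PD-1 replicate 2 and spleen anti-PD-1 replicate 2. Its median was 6.82% over the 13 IgG libraries and 7.45% over the 13 anti-PD-1 libraries. It reached 48.6% to 91.6% in the 12 lymph node libraries, which were therefore fitted apart. For 1 library the labels conflict: its title names peritoneal metastases (anti-PD-1, replicate 2) and its tissue field names spleen. The title was followed, and values without this library are given where they differ.

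Guides against 3 of the 11 genes, *Slc35c1*, *Fut8* and *Gmds*, were lower under anti-PD-1 than under IgG across organs. Averaged over the 4 organs with at least 2 libraries of each treatment, the difference was −2.71 for *Slc35c1* (SE 0.39), −1.87 for *Fut8* (SE 0.41) and −1.80 for *Gmds* (SE 0.37). Among all 2078 genes these were the lowest, the 3rd lowest and the 4th lowest differences. Between them lay *Sdhd*, a subunit of succinate dehydrogenase, at −2.48. In the limma fit across all genes, with Benjamini-Hochberg adjustment, 4 genes were called lower under anti-PD-1 (0.192% of those tested), and 3 of them belong to the fucose family. The 3 genes called higher (0.144%), *B3gnt4*, *Mgat2* and *Slc38a1*, include no member. Since the family was chosen on this contrast, nothing is read from these shares. The other 8 members lay between −0.22 (*Fut4*) and 0.60 (*Fut1*), and the median of all 11 was −0.02 beside 0.03 over all genes.

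These differences come from the contrast that chose the family, so their values under other settings are a description too. Over 39 other settings the difference ran from −2.98 to −2.03 for *Slc35c1*, from −2.06 to −1.47 for *Gmds* and from −2.89 to −1.43 for *Fut8*. With log2(value + 10), where values near 0 weigh less, the differences were smaller. They were then −2.03 for *Slc35c1*, −1.49 for *Gmds* and −1.43 for *Fut8*. None of the 3 was called when a gene was summarised by the median of its sgRNAs, although the differences were then −2.98, −1.80 and −2.89 for *Slc35c1*, *Gmds* and *Fut8*. The call for *Fut8* was lost without any 1 of 5 libraries, with differences of −1.85 to −1.67. These were spleen IgG replicate 1, primary tumour IgG replicate 3, primary tumour anti-PD-1 replicate 3, peritoneal metastases IgG replicate 3 and, at −1.67, peritoneal metastases anti-PD-1 replicate 2. The call for *Gmds* was lost without peritoneal metastases IgG replicate 2, where its difference was −1.69. With shared lowest values set to 0 the call for *Fut8* was lost too, at −1.95. Both *Fut8* and *Gmds* lost their calls with the lymph node libraries in the same fit and with the compared groups alone. Without the 4 libraries that had over 20% of sgRNAs undetected, the differences were −2.23 for *Slc35c1*, −1.47 for *Gmds* and −2.04 for *Fut8*. Lung IgG was then 1 library, replicate 3, so that lung entered this mean without the 2 libraries of each treatment required above.

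*Slc35c1*, the Golgi transporter, showed the widest gap. In primary tumour its guides changed against the T0 mean by 0.43, −0.02 and 0.47 in IgG replicates 1 to 3 and by −1.81, −1.04 and −2.54 in anti-PD-1 replicates 1 to 3. In lung the changes were 1.14, 1.45 and 1.13 under IgG and −1.78, −4.98 and −3.60 under anti-PD-1. In both organs every anti-PD-1 library lay below every IgG library, and in lung all 3 IgG libraries lay above T0, whose own libraries ranged from −0.07 to 0.09.

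In liver, *Slc35c1* guides changed by 0.29 and 0.56 under IgG and by −2.98 in the single anti-PD-1 library. In peritoneal metastases the changes were 0.29 and −0.86 under IgG and −1.70, −3.70 and −2.18 under anti-PD-1. In spleen they were 0.37, 0.93 and −0.01 under IgG and −1.09, −3.49 and 0.45 under anti-PD-1. Spleen was the organ where the treatments overlapped, through anti-PD-1 replicate 3. Counted over the 5 organs, 10 of 13 IgG libraries stood above the highest T0 library and 1 below the lowest, whereas 12 of 13 anti-PD-1 libraries stood below the lowest. The share of all genes with such counts was not taken, so they are a description alone.

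The treatment difference for *Slc35c1* was −2.09 in primary tumour (SE 0.76), −4.69 in lung, −3.40 in liver, −2.24 in peritoneal metastases and −1.81 in spleen. It was the lowest of 2078 genes in primary tumour, lung and liver. Lung was the organ where it was called, together with 8 other genes (0.433%), and across the 55 pairs of member and organ it was the 1 call. Without spleen anti-PD-1 replicate 2 the spleen difference was −0.75, and without the 3 lung libraries that had over 20% of sgRNAs undetected the lung difference was −3.82, against lung IgG replicate 3 alone. Peritoneal metastases gave −1.66 without the library whose tissue label is spleen.

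*Gmds* encodes the enzyme that commits GDP-mannose to GDP-fucose. Its guides changed in primary tumour by −0.18, 0.01 and −0.12 under IgG and by −0.82, −1.11 and −1.44 under anti-PD-1. In peritoneal metastases they changed by 0.46 and −0.43 under IgG and by −1.98, −2.20 and −1.83 under anti-PD-1. The anti-PD-1 libraries of these 2 organs were close to each other and apart from the IgG libraries.

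*Gmds* guides in spleen changed by 0.79, 0.77 and −0.19 under IgG and by −0.36, −2.69 and −1.28 under anti-PD-1, again without overlap. In lung they changed by −0.43, 0.23 and 0.72 under IgG and by −1.66, −4.58 and 0.01 under anti-PD-1, where replicate 3 lay among the IgG libraries. In liver the IgG libraries stood at −0.65 and −1.03 and the anti-PD-1 library at −1.51. The treatment differences were −1.02 in primary tumour, −2.25 in lung, −0.67 in liver, −2.02 in peritoneal metastases and −1.90 in spleen. The lung value rested on anti-PD-1 replicate 2, without which it was −0.99, and the spleen value was −1.28 without anti-PD-1 replicate 2.

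*Tsta3*, which encodes the next enzyme of the same route, showed no such gap in the mean of its guides. Single *Tsta3* guides differed between treatments by −1.88 to 1.84 over the 4 organs. Its guides changed in primary tumour by −0.16, −0.75 and −1.22 under IgG and by −0.85, 0.05 and −0.51 under anti-PD-1, and in lung by 0.61, −0.81 and −0.78 under IgG and by 0.55, −1.29 and 0.54 under anti-PD-1. The groups overlapped in each organ but liver, where the single anti-PD-1 library at −1.65 lay below IgG at −0.46 and −0.16. The treatment difference over 4 organs was 0.05, with a 95% interval of −0.57 to 0.66, against −2.56 to −1.04 for *Gmds*. These intervals describe the 2 genes separately, and the difference between the genes was not tested.

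The salvage genes differed little between treatments on average. Over the 4 organs *Fuk*, the fucose kinase, differed between treatments by 0.07 (95% interval −0.52 to 0.66) and *Fpgt*, which makes GDP-fucose from fucose 1-phosphate, by 0.35 (−0.50 to 1.20). *Fuk* ranged from −2.09 to 0.39 over the 13 IgG libraries (median −0.29) and from −2.56 to 0.55 over the 13 anti-PD-1 libraries (median −0.13). In lung *Fuk* ran opposite to *Slc35c1*, since its guides changed by −2.09, −1.11 and −1.08 under IgG and by −0.02, 0.06 and 0.55 under anti-PD-1, so that every anti-PD-1 library lay above every IgG library, as was so for 6.5% of genes. *Fpgt* ranged from −2.32 to 0.54 under IgG (median −0.61) and from −2.75 to 0.64 under anti-PD-1 (median −0.20).

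*Fut8*, the core fucosyltransferase, was below every T0 library in all 13 anti-PD-1 libraries and in 7 of 13 IgG libraries. Among the members this count ran from 1 for *Slc35c1* to 11 for *Fut2* under IgG. Under anti-PD-1 it ran from 5 for *Fpgt* to 13 for *Fut8*. The share of all genes with such counts was not taken, so nothing is read from them. In primary tumour its guides changed by −0.31, −0.16 and 0.01 under IgG and by −1.36, −0.77 and −2.05 under anti-PD-1. In spleen they changed by 0.25, −0.03 and −0.02 under IgG and by −0.92, −3.55 and −0.54 under anti-PD-1. In these organs the anti-PD-1 libraries all lay below the IgG libraries.

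*Fut8* guides in peritoneal metastases changed by −0.81 and 0.39 under IgG and by −1.13, −4.20 and −2.35 under anti-PD-1. In liver they changed by −0.93 and −0.58 under IgG and by −1.35 under anti-PD-1. In lung the values were −3.29, −2.37 and 0.38 under IgG and −3.50, −5.01 and −3.27 under anti-PD-1. Under IgG, *Fut8* guides were thus lowest in lung replicates 1 and 2, the libraries with 42.6% and 28.0% of sgRNAs undetected. The median over all genes in lung IgG was itself −1.42. Both liver IgG values and the −0.81 in peritoneal metastases IgG also lay below the lowest T0 library, at −0.12. The treatment differences were −1.24 in primary tumour, −2.17 in lung, −0.59 in liver, −2.35 in peritoneal metastases and −1.74 in spleen. The lung value was −3.77 without the libraries that had over 20% of sgRNAs undetected, where lung IgG replicate 3 was the 1 IgG library left, and −1.10 without IgG replicate 3, the peritoneal value was −1.52 without anti-PD-1 replicate 2, and the spleen value was −0.79 without anti-PD-1 replicate 2.

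For each of *Slc35c1*, *Fut8* and *Gmds*, every anti-PD-1 library lay below every IgG library in 4 of 5 organs, as was so for 4 of 2078 genes (0.192%). The other of these was *Sdhd*, which did so in all 5. By organ, the members without overlap in this direction were 3 in primary tumour (4.76% of all genes), 1 in lung (3.03%), 4 in liver (25.1%), 4 in peritoneal metastases (10.3%) and 2 in spleen (5.29%). The members beyond these 3 genes were *Tsta3* in liver and *Fut7* in peritoneal metastases, both in organs with few libraries. Without the libraries with over 20% of sgRNAs undetected, 13 genes did so in at least 4 organs. *Fut8* and *Gmds* then did so in all 5, in lung against IgG replicate 3 alone and in liver with the single anti-PD-1 library.

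The remaining transferases had smaller differences over the 4 organs. *Fut1* and *Fut2*, the alpha-1,2 transferases, differed between treatments over the 4 organs by 0.60 (95% interval −0.05 to 1.24) and 0.01 (−0.66 to 0.68). *Fut1* had the highest of the 11 differences. Every anti-PD-1 library lay above every IgG library for *Fut1*, *Fut2*, *Fut4* and *Fut7* in liver (42.2% of genes), which has the single anti-PD-1 library, for *Fut9* in primary tumour (7.84%) and for the salvage gene *Fpgt* in peritoneal metastases (11.4%). Their changes from T0 spanned −1.96 to 0.96 for *Fut1* and −2.53 to 0.59 for *Fut2* over the 26 libraries.

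Among the alpha-1,3 transferases the differences over 4 organs were −0.22 for *Fut4* (95% interval −1.02 to 0.58), −0.02 for *Fut7* (−0.64 to 0.61) and −0.13 for *Fut9* (−0.78 to 0.51). *Fut7* guides changed by −0.09, 0.55 and −0.52 in primary tumour IgG and by −0.33, −0.30 and 0.82 in primary tumour anti-PD-1, around T0 in both. *Fut4* guides reached −4.61 in lung anti-PD-1 replicate 2, beside −0.97 and −1.22 in the other two lung anti-PD-1 libraries and −1.37, −1.62 and −1.55 under IgG. *Fut9* had medians of −0.37 over IgG and −0.58 over anti-PD-1 libraries.

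Against T0, guides of the 3 genes were lower under anti-PD-1 and nearer to T0 under IgG. Averaged over the 5 anti-PD-1 groups the changes were −2.43 for *Slc35c1*, −2.18 for *Fut8* and −1.63 for *Gmds*, beside a median of −0.53 over all genes. All 3 were called depleted there, as were 17.5% of genes, although *Gmds* was called in 10 of 39 other settings. Averaged over the 5 IgG groups the changes were 0.42, −0.56 and −0.06 beside a median of −0.61, and no member was called, against 17.4% of genes. Both averages share the T0 libraries, and the mean over the 4 organs above is the direct comparison of the treatments.

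By single group, 7 of 110 pairs of member and group were called depleted (17.6% of all pairs) and 0 enriched (0.12%), with 13 and 0 at an unadjusted p under 0.05 (23.4% and 0.255% of all pairs). *Fuk* was called depleted in lung IgG at −1.42 (38.2% of genes called there), but stood at 0.07 with the median of its sgRNAs. *Slc35c1* at −3.45, *Fut8* at −3.93, *Fut4* at −2.26 and *Gmds* at −2.08 were depleted in lung anti-PD-1 (27.3%), where *Fut4* at −1.09 and *Gmds* at −0.82 were not called without replicate 2. *Slc35c1* at −2.53 and *Fut8* at −2.56 were depleted in peritoneal metastases anti-PD-1 (16.1%). Of 39 other settings, 34 and 32 called them, at changes from −3.01 to −1.82 for *Slc35c1* and from −3.275 to −1.74 for *Fut8*. The −1.74 of *Fut8* was the value without replicate 2, the library whose tissue field names spleen. These values chose the family, and nothing is read from the shares.

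The single guides of the 3 genes were also compared. Averaged over the 4 organs, anti-PD-1 minus IgG was below −1 for 5 of 5 *Slc35c1* sgRNAs, from −4.15 to −1.66, and for 5 of 5 *Gmds* sgRNAs, from −2.49 to −1.45. Of the *Fut8* sgRNAs 4 of 5 were below −1, with a range of −4.15 to −0.78. *Gmds* and *Slc35c1* were the 2 genes of 2078 with all 5 sgRNAs below −1 (0.0962%), and 9 genes had at least 4 (0.433%). Below −1 lay 15.6% of the 10390 gene sgRNAs and 11.2% of the nontargeting sgRNAs. Without the libraries with over 20% of sgRNAs undetected, *Slc35c1* kept 5 and *Gmds* and *Fut8* had 4 each.

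Each gene has 25 pairs of sgRNA and organ. Of these, 24 were below 0 for *Slc35c1*, 24 for *Gmds* and 21 for *Fut8*, while the median over all genes was 12. For *Slc35c1* and *Gmds* the pairs above 0 were *Slc35c1* s_08725 in liver (0.14) and *Gmds* s_08467 in liver (2.16), both against the single anti-PD-1 library there. For *Tsta3* 11 of 25 pairs were below 0, for *Fuk* 12 and for *Fpgt* 9.

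The guides with the lowest differences were *Fut8* s_04336 and *Slc35c1* s_08721, the 2nd and 3rd lowest of 10390. The signal of *Slc35c1* s_08721 was 263, 346 and 230 in the T0 libraries, 645, 640 and 316 in primary tumour IgG and 62.7, 138 and 0.398 in primary tumour anti-PD-1. Lung libraries had signals of 840, 476 and 146 under IgG and 115, 0.789 and 16.8 under anti-PD-1. This guide thus stood near or above T0 in the IgG tumours and below T0 in the anti-PD-1 tumours. It was undetected in 3 of the 26 libraries, lung anti-PD-1 replicate 2 among them. The 0.398 in primary tumour anti-PD-1 replicate 3 was counted as detected, though near 0. Spleen anti-PD-1 replicate 3, with a signal of 348, was the anti-PD-1 library above all T0 libraries.

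The signal of *Fut8* s_04336 was 253, 201 and 116 in T0, 294, 552 and 248 in primary tumour IgG and 38.9, 33.4 and 9.47 in primary tumour anti-PD-1. In spleen it was 329, 1130 and 264 under IgG and 32.6, 0.752 and 81.9 under anti-PD-1. The other *Fut8* guides differed less, down to −0.78 for *Fut8* s_04337, so that 1 guide of this gene stood apart from the other 4.

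*Gmds* s_08466, the most displaced guide of its gene at −2.49, had signals of 844, 524 and 461 in T0. It stood at 899, 1110 and 425 in primary tumour IgG and at 299, 106 and 163 in primary tumour anti-PD-1, and in spleen at 1530, 3506 and 286 under IgG and at 169, 254 and 462 under anti-PD-1. In spleen the treatments overlapped for this guide, in primary tumour they did not.

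Undetected sgRNAs were also counted. Over all sgRNAs their median share was 6.82% in the IgG libraries and 7.45% in the anti-PD-1 libraries. The shares reached 42.6% under IgG and 30.2% under anti-PD-1. The member counts below pool all libraries, and a median gives sparse libraries little weight. These medians are therefore too low as a background for the pooled counts. Of the 55 member guides, 37, 39 and 42 were detected in replicate 2 of lung, spleen and peritoneal metastases anti-PD-1. In lung IgG replicates 1 and 2, 40 and 44 were detected. The counts below draw largely on these sparse libraries, and the peritoneal one is the library with conflicting labels. Among 65 values per treatment (5 sgRNAs in 13 libraries), *Slc35c1* had 0 undetected under IgG and 13 under anti-PD-1. *Fut8* had 6 and 13, and *Gmds* had 2 and 8. *Fut2* had 1 and 5, *Fpgt* and *Fut9* 4 and 5 each, and *Fut1* 5 and 5. *Tsta3* had 1 and 1, *Fuk* 3 and 2, *Fut7* 3 and 1, and *Fut4* 6 and 6.

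Each organ was also compared with primary tumour as the mean of both treatments. T0 cancels in such a difference, but it is formed from the changes against T0 by organ that chose the family, so it is a description and carries no p-value. The authors had also corrected the signal between organs, so a difference between organs is what was left after that correction. How much the correction removed or added was not tested. In lung, guides of *Fut8* were lower than in primary tumour by a difference of −2.07 (SE 0.57) and guides of *Fut4* by −1.58 (SE 0.54). Both were called by limma, as were 20.5% of all genes in this direction, and no member was called higher. The median over all genes was −0.89, so that *Fut8* lay −1.18 and *Fut4* −0.69 from the typical gene. *Slc35c1* (−0.35, 95% interval −1.44 to 0.74) and *Gmds* (−0.34, −1.39 to 0.70) were not called in lung.

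The lung calls depended on few libraries and on the centring. *Fut8* was not called without lung IgG replicate 1, at −1.69, nor without the libraries with over 20% of sgRNAs undetected, at −0.73. Centring on the nontargeting mean in place of the median raised the median of all genes in this contrast by 0.90 and put *Fut8* at −1.17, where it was not called. *Fut4* lost its call without any 1 of 10 libraries (−1.66 to −0.99), namely T0 replicates 2 and 3, the 3 of primary tumour IgG, replicates 1 and 3 of primary tumour anti-PD-1, lung IgG replicates 1 and 2, and lung anti-PD-1 replicate 2, which gave −0.99.

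Liver, peritoneal metastases and spleen had 0 of 2078 genes called against primary tumour by limma, with 27, 64 and 93 genes at an unadjusted p under 0.05 and no member among them. Since the signal had been corrected between organs, no likeness of these organs is read from this. *Slc35c1* stood at −0.52 in liver (95% interval −1.91 to 0.87), −0.65 in peritoneal metastases (−1.81 to 0.50) and 0.28 in spleen (−0.81 to 1.37) relative to primary tumour.

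The treatment difference was also compared between organs in the same fit, after the data had been seen. This contrast is formed from the treatment differences by organ that chose the family and is likewise a description. Relative to primary tumour, the anti-PD-1 minus IgG difference of *Slc35c1* was lower in lung by −2.60 (95% interval −4.78 to −0.42), and it differed by −1.31 in liver, −0.15 in peritoneal metastases and 0.28 in spleen. limma called 0 of 2078 genes in each of these 4 contrasts, with 103, 22, 12 and 25 genes at an unadjusted p under 0.05. The intervals of *Gmds* and *Fut8* included 0 in every organ. In the lung contrast 1 member, *Slc35c1*, was lower and 1 other member was higher at an unadjusted p under 0.05. Of all genes, 28 were lower and 75 higher there.

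The neighbouring steps of glycan synthesis were followed in the same averages, in which 17.4% of all genes were called depleted under IgG and 17.5% under anti-PD-1. These lists were not tested against the 3 genes. Of the 5 genes that supply GDP-mannose, *Gmppb*, a GDP-mannose pyrophosphorylase subunit, and *Pmm2*, a phosphomannomutase, were called depleted against T0 in the mean of the IgG groups (−5.40 and −3.73) and in the mean of the anti-PD-1 groups (−5.97 and −2.61). The list's medians were −1.07 and −1.06 beside −0.61 and −0.53 over all genes. None of the 5 was called between treatments, where the list's median was 0.10 beside 0.03.

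Among the 9 genes that build the N-glycan on which *Fut8* acts, *Mgat1*, which starts complex N-glycans, was depleted by −5.80 under IgG and by −5.81 under anti-PD-1. *Mgat2*, which adds the next branch, went the other way, with a change of 1.46 over the anti-PD-1 groups and 0.09 over the IgG groups, and its guides were higher under anti-PD-1 by 1.32 over the 4 organs. The list's median between treatments was 0.06.

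Of 15 genes that build the rest of sialyl Lewis x and selectin ligands, 13 had guides and 6 were depleted under both treatments, namely *C1galt1* and *C1galt1c1* of core 1 O-glycans, *B4galt1*, the transporters *Slc35a1* and *Slc35a2*, and *Cmas*, which activates sialic acid. For *Slc35a1* the change was −4.33 under IgG and −4.86 under anti-PD-1, and for *Slc35a2* it was −5.52 and −5.14. None of the 13 was called between treatments, and their median difference was −0.09.

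The 7 other *Slc35* nucleotide sugar transporters, *Slc35a1* and *Slc35a2* among them, included 2 depleted under IgG and 3 under anti-PD-1, the further one being *Slc35b2* at −1.96, and 0 called between treatments, with a median difference of −0.28. The fucosidases *Fuca1* and *Fuca2* were not called in these comparisons. The genes *Lfng*, *Mfng*, *Rfng*, *Poglut1* and *Eogt* of Notch O-glycans, *Tpst1*, *Tpst2* and *Slc35c2* had no guides in the table.

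The genes most like *Slc35c1* were sought by Pearson's r over the 26 libraries, as a description, since all values share the T0 reference and the centring and the libraries fall into the treatments. *Gmds* had the highest r of 2077 genes at 0.78 and *Fut8* the 8th at 0.70. The 5 genes outside the family with the highest r were *Sdhd* (0.73), *Mdh2* (0.72), *Acsl5* (0.72), *Slc25a1* (0.72) and *Slc1a3* (0.70), and the median over all genes was 0.08. Within the 13 IgG libraries r with *Slc35c1* was 0.31 for *Gmds* and −0.56 for *Fut8* (median of all genes −0.29), and within the 13 anti-PD-1 libraries it was 0.56 and 0.84 (median 0.38). The likeness of *Fut8* was thus that of the anti-PD-1 libraries, and in the IgG libraries the sign was opposite.

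In lymph nodes the guides were too sparse for gene values to be compared. Between 6 and 32 of the 55 guides were detected per library. *Slc35c1* was detected in 3 of 30 values under IgG and 1 of 30 under anti-PD-1, *Fut8* in 7 and 4, *Gmds* in 9 and 7, *Tsta3* in 16 and 13 and *Fut7* in 14 and 13. Over all sgRNAs the mean detected share was 26.5% under IgG and 26.6% under anti-PD-1. limma called no member in lymph nodes against T0 or between treatments. At an unadjusted p under 0.05, 9 of 44 comparisons lay above T0, beside 18.6% of all comparisons, and 0 of all lay below. The nontargeting median used for centring had a signal of 0 to 1.39 in these libraries, beside 194 to 297 in T0. With this centring the medians over all genes stood 1.37 to 2.08 above T0, so no enrichment is read from these values. Between treatments 1 of 22 was lower under anti-PD-1, that of *Tsta3* in nondraining lymph nodes, beside 2.82% of all.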

How the data were processed

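Reads were counted for each sgRNA by the authors, who used MAGeCK-VISPR 0.5.3, normalized them to the 250 nontargeting sgRNAs, corrected organs with ComBat and deposited the result, a signal per sgRNA and library. These are not whole counts, so no count test was run, the depth is unknown and no counting interval is given. The genome build is not given in the sources used here, and no coordinates or guide sequences are printed. All 41 columns of the table belong to a sample, and 0 do not. Members and pathway lists were chosen with earlier results of these data known. Every member is named, and neighbouring genes by pathway lists or by likeness to *Slc35c1*.

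From the signal, log2(value + 1) was averaged over a gene's sgRNAs and centred on the nontargeting median. limma 3.58.1 in R 4.3.3 fitted T0 and the 10 groups of 5 organs (29 libraries, 18 residual degrees of freedom, prior degrees of freedom 12.6), and T0 with the lymph node groups apart (15 libraries). Contrasts were each group minus T0, anti-PD-1 minus IgG, each organ minus primary tumour and, added after seeing the data, the treatment difference of an organ minus that of primary tumour. A gene was called where its p, adjusted by Benjamini-Hochberg over 2078 genes, was 0.05 or less. The script was tested on simulated data. Alternatives were another pseudocount (10), 3 other centrings, the median of the sgRNAs, leaving out the lowest 10% of sgRNAs in T0, shared lowest values set to 0, all libraries in 1 fit, the compared groups alone, a replicate block and each library left out. Leaving out the 4 libraries with over 20% of sgRNAs undetected was added later. Tables were handled in Python 3.11.15 with pandas 2.3.3 and numpy 2.4.6. Symbols were matched to RefSeq, 9 of the 11 as current symbols and 2 by synonym.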

Additional observations from a re-analysis of the deposited data

How the results depend on the processing

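The 3 members called lower under anti-PD-1 over the 4 organs became 0 with the median of a gene's sgRNAs, 1 with the lymph node libraries in the same fit and 1 with the compared groups alone, and 2 to 3 with a library left out. The 1 member called lower in a single organ became 3 with the nontargeting mean for centring, 0 with the median of sgRNAs, 0 with the lymph nodes in the fit, 2 without the libraries with over 20% of sgRNAs undetected, and 1 to 2 with a library left out, 2 without lung anti-PD-1 replicate 3. Of the 7 pairs depleted against T0 there were 4 with the nontargeting mean, 3 with the median of all sgRNAs for centring, 19 without centring, 1 with the median of sgRNAs, 4 without the lowest 10% of sgRNAs, 2 with the lymph nodes in the fit, 15 with the compared groups alone, and 2 to 9 with a library left out, 2 without T0 replicate 2 and 3 without T0 replicate 1 or 3. Pairs enriched against T0 were 1 with the nontargeting mean and 2 with the compared groups alone, from 0. The 2 members lower in lung than in primary tumour became 0 with log2(value + 10), with the nontargeting mean, with the median of sgRNAs, with the lymph nodes in the fit and without the libraries with over 20% of sgRNAs undetected, 1 without the lowest 10% of sgRNAs or with the compared groups alone, and 0 to 3 with a library left out, 0 without lung IgG replicate 1. The causes of these moves were not tested. The other 275 values of these counts were within 1.5 times the main count.

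The replicate number as a block gave 7 pairs depleted and 0 enriched against T0, 1 member lower in a single organ and 0 higher, 3 lower over the 4 organs and 0 higher, and 2 lower in an organ than in primary tumour and 0 higher. The numbers were not taken as pairs in the main fit. The correlation of deviations from group means ran from −0.36 to 0.27 over 118 pairs of the same number (median −0.01). It was over 0.1 in 39 of these and in 18 of 234 pairs of different numbers, so libraries of one number may not be independent. Lowest values are shared within a number, and the libraries were sequenced in 3 runs, which the sources used here do not tie to the numbers. *Fuk* in lung IgG, called depleted against T0 at −1.42, was at 0.074 with the median of sgRNAs, the 1 called value that changed sign. Liver anti-PD-1 has 1 library, which could not be left out. Signal that many sgRNAs share as a lowest value limits changes below T0, most in lung and lymph nodes.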
